A study of Mus musculus with 52 samples.

Results

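Cirbp and Rbm3 are the cold-inducible RNA-binding protein genes of the mouse, and they were read here by gene name in every tissue of a study of Tug1-/- mice. These 2 genes, of 39144 genes listed over the tables, were both listed in all 8 tissues. The tissues were testes, eyes, heart, liver, prostate and spleen of male mice, and brain. The sex of the brain animals is not given in the labels. Mouse embryonic fibroblasts (MEFs, primary cells grown from embryos and taken at an early passage) were read as a further tissue. Tug1 is a long noncoding RNA gene, and in Tug1-/- mice its body was replaced by lacZ while the promoter and first exon were kept.

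Each genotype was represented by 3 samples in eyes, heart, liver, spleen and MEFs. Prostate came from 3 wild-type and 2 Tug1-/- mice, and testes from 4 wild-type, 4 Tug1-/- and 3 rescue mice. The rescue mice lacked Tug1 in the same way and carried a randomly integrated Tug1 transgene of an isoform without part of the 5′ region, together with CAGs-rtTA3, in which a broadly active promoter drives the activator that doxycycline in the food switches on. All groups carry the strain name Tug1_tm1.1Vlcg and a mixed C57BL/6J/129S6 background. That background is labelled N3-C57BL/6J with no Neo (the selection cassette of the targeted allele) for wild-type and Tug1-/- samples outside testes. In testes the wild-type samples were labelled with no Neo, whereas both Tug1-/- and rescue samples were labelled with Neo and LacZ. The paper's methods instead say that mice without the neomycin resistance gene were chosen to expand the colony. If Neo was present in these testes, its effects cannot be told apart there from those of the deletion. LacZ took the place of the gene body in Tug1-/- mice of every tissue, so its effects cannot be told apart from those of the deletion in any of them. Brain means came from libraries of an earlier data set, whose number is not given in the labels. Ages and the time of day of collection are not given in the labels for the sequenced animals, and tissues were frozen right after killing. Testes of F1 hybrid mice, 6 of the 52 samples, were not analysed here.

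The tables read here give the authors' mean of each group in TPM, a unit that scales reads to transcript length and then to a fixed total per library. No value of a single sample could be read, so each ratio below is a ratio of 2 means with no replicate error and no test, and whether it exceeds the spread between mice was not assessed here. Depth per sample is unknown as well. The authors' mean normalised read count over both genotypes, which the table without testes gives, lay between 623 in liver and 9565 in eyes for Cirbp, and between 924 in brain and 15951 in spleen for Rbm3. Tug1 itself was at 2.21% of the wild-type mean in Tug1-/- testes, at 0.0825% to 0.512% in the other tissues, and at 4.0% in rescue testes. The tissue markers reported here were high in their own tissue, except Sbp, a secretory gene of the prostate, which was at 1.64 TPM in wild-type prostate beside 65995 TPM of Pbsn, the probasin gene.

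Both genes code for small glycine-rich proteins with 1 RNA recognition motif. Their mRNAs accumulate when cells or tissues are cooled mildly, and Cirbp mRNA follows the daily rhythm of body temperature and is lowered by heat. Cirbp binds the 3′ ends of transcripts and influences poly(A) site choice, including in clock gene transcripts, and Rbm3 promotes translation and the regrowth of synapses after cooling. Temperature acts in part through splicing: an exon of Rbm3 that leads to decay of its transcript is included more in the warm, and kinases of the Clk family, which phosphorylate SR splicing factors, are more active in the cold.

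Cirbp (ENSMUSG00000045193.13) lies at chr10:80165985-80172786 on the plus strand of GRCm38, and Rbm3 (ENSMUSG00000031167.16) at chrX:8138975-8145880 on the minus strand. GENCODE M21 lists 7 Cirbp transcripts, of which 2 are protein coding, 1 is marked for nonsense-mediated decay and 4 retain an intron. For Rbm3 it has 11, of which 6 are protein coding, 2 are marked for nonsense-mediated decay and 2 retain an intron. The TPM of each gene sums over these forms, so an exchange between a coding and a decayed form was not measured. Of the 4698 exonic bases of Rbm3, 94 are shared with the antisense gene Rbm3os. The sources used here do not say whether counting used the strand, so reads of that stretch cannot be assigned between the pair.

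The stretch in front of the Cirbp start is shown because it holds the element through which mild cold has been described to act on this gene. It covers 189 bases at chr10:80167589-80167777 of GRCm38.p6, plus strand, from a RefSeq promoter window, and it ends just before a transcript start of GENCODE at 80167778. The RefSeq start is at 80167839. The stretch begins 1604 bases inside the gene interval given above, within an intron of the Cirbp transcript that starts furthest upstream and in no exon. A further RefSeq window for Cirbp, with its start at 80168171, held neither TCCCCGCC nor CCAAT in the same number of bases and is not shown. Capitals mark TCCCCGCC, the mild-cold response element, and the CCAAT boxes, the second of which reads ATTGG because it lies on the minus strand.
Cirbp promoter: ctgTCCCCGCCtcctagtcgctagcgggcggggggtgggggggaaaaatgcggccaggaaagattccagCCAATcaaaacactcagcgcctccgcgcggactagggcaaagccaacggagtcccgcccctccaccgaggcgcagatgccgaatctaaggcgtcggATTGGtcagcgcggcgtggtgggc
Counted from the RefSeq start, the cold element begins 247 bases before it, and the CCAAT boxes begin 181 and 85 bases before it. Searched on both strands, TCCCCGCC occurred in 2.86% of 32851 RefSeq windows cut to the same length, CCAAT in 26.5%, and both together in 0.740%. The GC box GGGCGG occurred in 22.6% of them and 2 times in the Cirbp window, 225 and 128 bases before the start, without overlap with the cold element or a CCAAT box. The heat shock element pair TTCNNGAA occurred in 5.35% of windows and was not among the letters of this one. These are matches of letters, not sites of binding. No window for Rbm3 was used here.

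In wild-type tissues the levels of both genes spanned a wide range, and in different orders. Cirbp was at 306 TPM in eyes, 121 TPM in prostate, 114 TPM in spleen, 75.3 TPM in testes, 74.7 TPM in brain, 41.6 TPM in heart, 28.0 TPM in MEFs and 15.9 TPM in liver, a 19.2-fold span. Eyes stood apart at the top, and testes and brain lay next to each other. Rbm3 was at 248 TPM in spleen, 228 TPM in MEFs, 94.0 TPM in prostate, 86.4 TPM in eyes, 43.0 TPM in brain, 25.7 TPM in heart, 17.8 TPM in testes and 14.4 TPM in liver, a 17.2-fold span. Liver was lowest for both genes. Because no spread over samples could be read, neighbours in either order cannot be said to differ.

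TPM is corrected for length, and the level of one gene is set here beside the other's in the same tissue. The order of the pair then depends on the length taken for each. Over all forms GENCODE M21 gives 4698 exonic bases for Rbm3 and 2604 for Cirbp. The mean normalised read count, not corrected for length, was higher for Rbm3 in brain (924 against 897), heart (2398 and 2149), liver (1241 and 623) and prostate (5590 and 3710). It was higher for Rbm3 in MEFs and spleen as well, and for Cirbp in eyes. By TPM, Cirbp was the higher of the pair in 6 wild-type tissues, by 4.23-fold in testes and 3.54-fold in eyes. The margin was 1.74-fold in brain, 1.62-fold in heart, 1.28-fold in prostate and 1.10-fold in liver. Rbm3 was the higher in MEFs, by 8.14-fold, and in spleen, by 2.17-fold. In Tug1-/- liver the order of the pair by TPM turned, with Rbm3 at 1.40 times Cirbp. In Tug1-/- prostate the mean TPM of the pair came closer, with Cirbp at 1.06 times Rbm3. Cirbp and Rbm3 each kept the same rank in both genotypes in 6 of the 8 tissues.

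**Figure D1:**
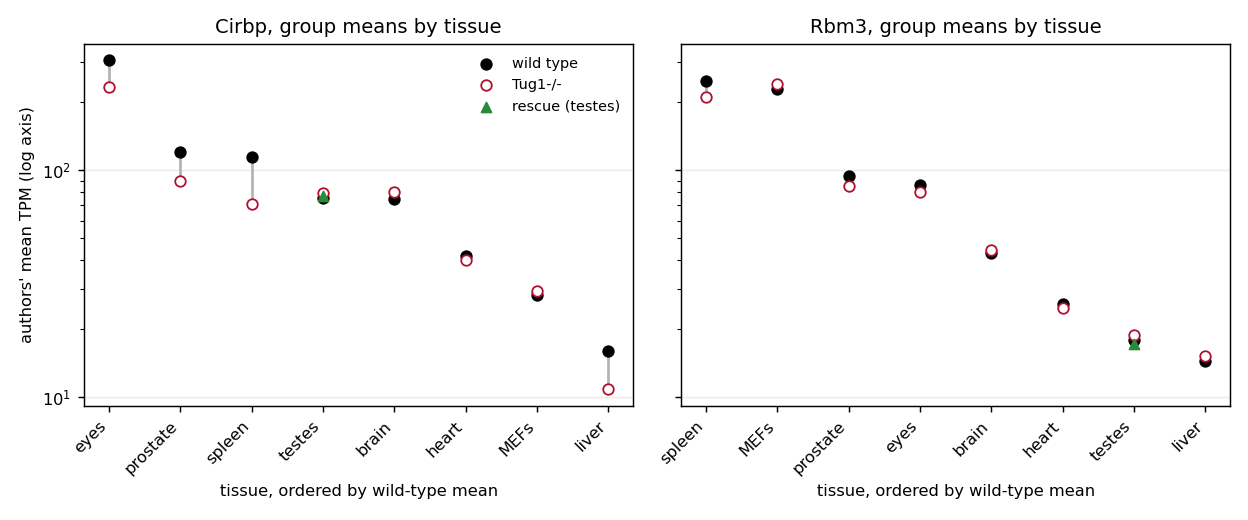
Mean TPM of Cirbp (left) and Rbm3 (right) on a log axis, by tissue in the order of the wild-type mean. Filled circles are wild type, open circles Tug1-/- and the triangle rescue testes, each 1 group mean with no error available; the Cirbp circles part in eyes, prostate, spleen and liver, and the Rbm3 circles lie close together in all 8 tissues.

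Cirbp was lower in Tug1-/- mice in eyes, liver, prostate and spleen, and near its wild-type level in testes, brain, heart and MEFs. In spleen the means were 114 TPM in wild type against 71.1 TPM in Tug1-/- samples, a log2 ratio of -0.69. In liver they were 15.9 and 10.8 TPM, a log2 ratio of -0.56. In prostate they were 121 and 89.6 TPM, a log2 ratio of -0.43. In eyes they were 306 and 234 TPM, a log2 ratio of -0.39. These are ratios in which 0.1 TPM was added to each mean. As plain ratios of the means, Cirbp was 1.61-fold lower in spleen, 1.47-fold lower in liver, 1.35-fold lower in prostate and 1.31-fold lower in eyes.

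The other 4 tissues gave small ratios for Cirbp. Means were 75.3 TPM in wild-type against 79.1 TPM in Tug1-/- testes (log2 ratio 0.07), and 74.7 and 80.6 TPM in brain (0.11). In heart they were 41.6 and 40.0 TPM (-0.06), and in MEFs 28.0 and 29.2 TPM (0.06).

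Only the spleen ratio of Cirbp went past 1.5-fold lower, and in 4 tissues (spleen, liver, prostate and eyes) its mean was at least 20% lower. Among genes with at least 1 TPM in either group, 5.07% were past 1.5-fold lower in spleen. That share was 2.49% in heart, 2.65% in liver, 2.67% in prostate, 3.51% in testes, 3.91% in MEFs, 3.94% in brain and 4.68% in eyes. At least 20% lower were 17.7% of genes in spleen and 14.9% in eyes, against 7.52% in liver and 6.47% in prostate. The share was 6.65% in testes, 7.88% in brain, 5.01% in heart and 9.71% in MEFs. The limit of 20% was thus passed by more genes in spleen and eyes than in liver and prostate. Ranked among all genes past the filter, Cirbp had a ratio above that of 2.97% of genes in liver, 3.35% in spleen, 4.37% in prostate and 10.7% in eyes.

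The median log2 ratio of all genes was itself -0.11 in eyes and -0.11 in spleen, and 0.10 in heart. Measured from that median, Cirbp was at -0.28 in eyes, which is no longer 20% lower, and at -0.58 in spleen, just short of 1.5-fold. It was at -0.57 in liver and -0.46 in prostate, and at -0.16 in heart. As a count chosen after the Cirbp values were seen, 26 of 9343 genes with at least 1 TPM in both groups of every tissue (0.278%) were at least 20% lower in at least 4 of the 8 tissues. Measured from the median of all genes, 17 of 9343 genes (0.182%) were, and Cirbp, then at least 20% lower in 3 tissues, was no longer among them.

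Rbm3 differed little between the genotypes. The ratio of the means as given was furthest from 0 in spleen, where the means were 248 TPM in wild type against 210 TPM in Tug1-/- samples, a log2 ratio of -0.24. Next came prostate with 94.0 and 84.9 TPM (-0.15) and eyes with 86.4 and 80.3 TPM (-0.11). Measured from the median of all genes, Rbm3 was at 0.00 in eyes, -0.13 in spleen, -0.18 in prostate and -0.17 in heart, so that prostate and heart then lay further from 0 than spleen. In liver, where Cirbp was lower, Rbm3 was at 14.4 TPM in wild type against 15.1 TPM in Tug1-/- samples (0.07).

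In testes Rbm3 had 17.8 and 18.7 TPM (log2 ratio 0.07), in brain 43.0 and 44.6 TPM (0.05), in heart 25.7 and 24.6 TPM (-0.06) and in MEFs 228 and 241 TPM (0.08). In none of the 8 tissues was the Rbm3 mean at least 20% lower, and its highest log2 ratio was the 0.08 in MEFs. Set side by side, the log2 ratio of Cirbp lay below that of Rbm3 by 0.62 in liver, 0.44 in spleen, 0.28 in prostate and 0.28 in eyes, and the pair differed by at most 0.06 in the other 4 tissues. Whether these differences exceed the spread between mice was not tested.

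**Figure D2:**
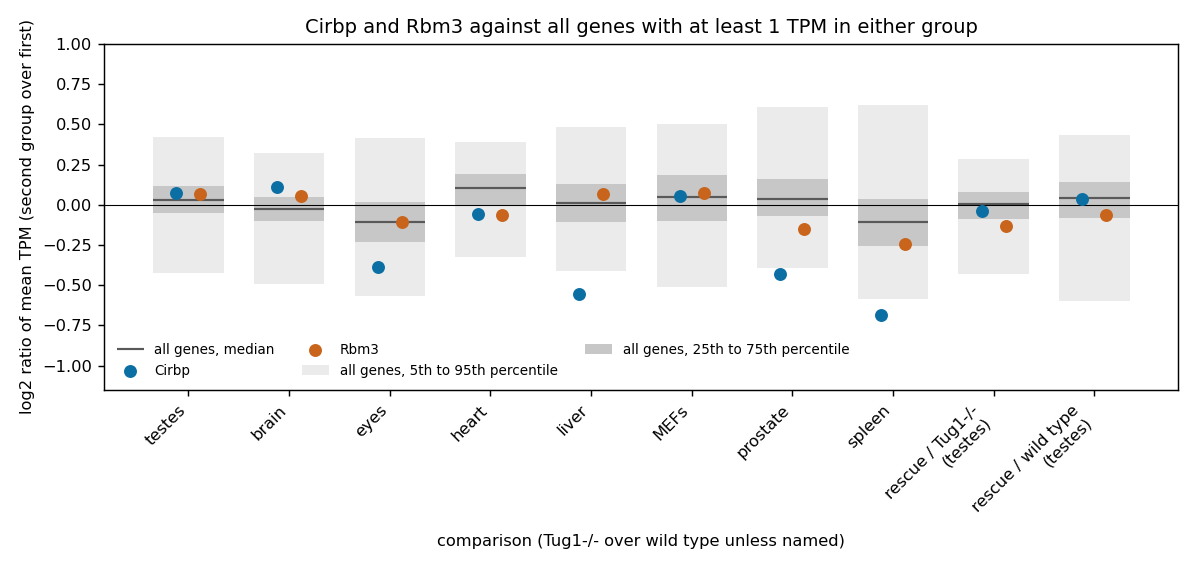
Log2 ratio of mean TPM for Cirbp (blue) and Rbm3 (orange) in each comparison, over the 5th to 95th percentile (light bars), the 25th to 75th percentile (dark bars) and the median (lines) of all genes with at least 1 TPM in either group. Cirbp lies below the 5th percentile in liver, prostate and spleen and inside the light bar elsewhere, and Rbm3 lies inside the light bar in all 10 comparisons.

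Both genes had similar means in the 3 groups of testes. Cirbp was at 75.3 TPM in wild-type, 79.1 TPM in Tug1-/- and 77.1 TPM in rescue testes, a log2 ratio of -0.04 for rescue over Tug1-/- and 0.03 for rescue over wild type. Rbm3 was at 17.8, 18.7 and 17.0 TPM in the same order, with log2 ratios of -0.13 and -0.06. The comparisons share the Tug1-/- or the wild-type mean. The ratio of neither gene was past 1.5-fold, against 3.22% of genes past 1.5-fold lower for rescue over Tug1-/- and 5.14% for rescue over wild type.

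Markers of the tissues themselves, and of other tissues, moved beside some of these ratios. In spleen the B cell gene Cd79a was at 1295 TPM in wild type against 947 TPM in Tug1-/- samples. In the same tissue the liver genes Alb and Apoa1 summed to 18.9 TPM in wild type against 0.108 TPM in Tug1-/- samples, and the fibroblast collagens Col1a1 and Col1a2 to 67.9 and 50.2 TPM. None of these 5 genes was at 0 in either group. In eyes the collagens summed to 416 and 303 TPM and the lens gene Cryaa was at 12449 and 12094 TPM. In prostate Tnni3 was at 8.05 TPM in wild type against 4.05 TPM in Tug1-/- samples, while in liver the sum of Alb and Apoa1 was 109322 and 116993 TPM. The collagens ran the other way there, with sums of 48.3 and 60.0 TPM in prostate and of 3.36 and 4.22 TPM in liver. Their part in the Cirbp ratios was not tested, and in bulk tissue fewer cells of a type and less RNA per cell cannot be told apart.

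Mitochondrially encoded transcripts count toward the same TPM total, and their share differed between genotypes in some tissues. It was 47.5% in wild-type and 43.8% in Tug1-/- heart, 9.44% and 11.8% in eyes, 5.48% and 4.58% in spleen, and 4.91% and 3.45% in MEFs. Rescaled without these transcripts and the 50 most abundant other genes, Cirbp was at -0.67 in spleen, -0.56 in liver, -0.45 in prostate, -0.35 in eyes and -0.18 in heart.

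The genes that respond to heat, which are known to run opposite to Cirbp with temperature, were read from a list of 16 chaperones and co-chaperones. In heart, liver, prostate and spleen all 16 were above their wild-type mean, a direction that held when the ratios were measured from the median of all genes and for every one of them left after rescaling. Past 1.5-fold higher were 8 of 16 in spleen, 7 in liver, 6 in prostate and 4 in heart, where 5.40%, 3.37%, 5.32% and 2.08% of all genes were. The 7 in liver include Hspa1a, which passed the filter on level there through the Tug1-/- mean alone. The median log2 ratio of the list was 0.58 in spleen, 0.50 in prostate, 0.49 in liver and 0.43 in heart. The median of all genes lay between -0.11 and 0.10 in these 4 tissues.

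Hsph1, a nucleotide exchange factor for Hsp70, was at 42.2 TPM in wild-type against 107 TPM in Tug1-/- spleen, and at 10.3 and 26.0 TPM in liver. It was at 25.7 and 55.1 TPM in prostate and at 12.4 and 26.0 TPM in heart. Hspa1a, an inducible Hsp70, was at 7.17 TPM in wild-type against 25.2 TPM in Tug1-/- prostate, at 2.31 and 4.28 TPM in heart, and at 0.290 and 1.21 TPM in liver, where it passed the filter on level through the Tug1-/- mean alone. Hspa1a and Hspa1b are near-identical copies, so uniquely mapped reads may be split unevenly between them. Hspa8, the constitutive Hsp70, was at 719 and 1088 TPM in spleen and at 290 and 453 TPM in liver, log2 ratios of 0.60 and 0.64.

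In the remaining tissues 14 of 16 chaperones were above their wild-type mean in eyes and in testes, 13 in MEFs and 10 in brain, by smaller ratios at the median of the list. Past 1.5-fold higher was 1 of 16 in testes (Hspb1, log2 ratio 0.68), against 2.75% of all genes. There were 0 of 16 in brain, eyes and MEFs, against 2.19%, 3.19% and 3.82% of all genes. The median log2 ratio of the list was 0.05 in testes, 0.02 in brain, 0.12 in eyes and 0.15 in MEFs. The median of all genes was 0.03 in testes, -0.03 in brain, -0.11 in eyes and 0.05 in MEFs. Above that median lay 13 of 16 chaperones in testes, 13 in brain, 14 in eyes and 12 in MEFs. In these means, tissues with a lower Cirbp and tissues with higher chaperones were not the same set: heart had higher chaperones with Cirbp at -0.06, and eyes had Cirbp at -0.39 with a chaperone median of 0.12. Measured from the median of all genes this contrast was smaller, with Cirbp at -0.16 and a chaperone median of 0.33 in heart, and Cirbp at -0.28 and a chaperone median of 0.22 in eyes.

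**Figure D3:**
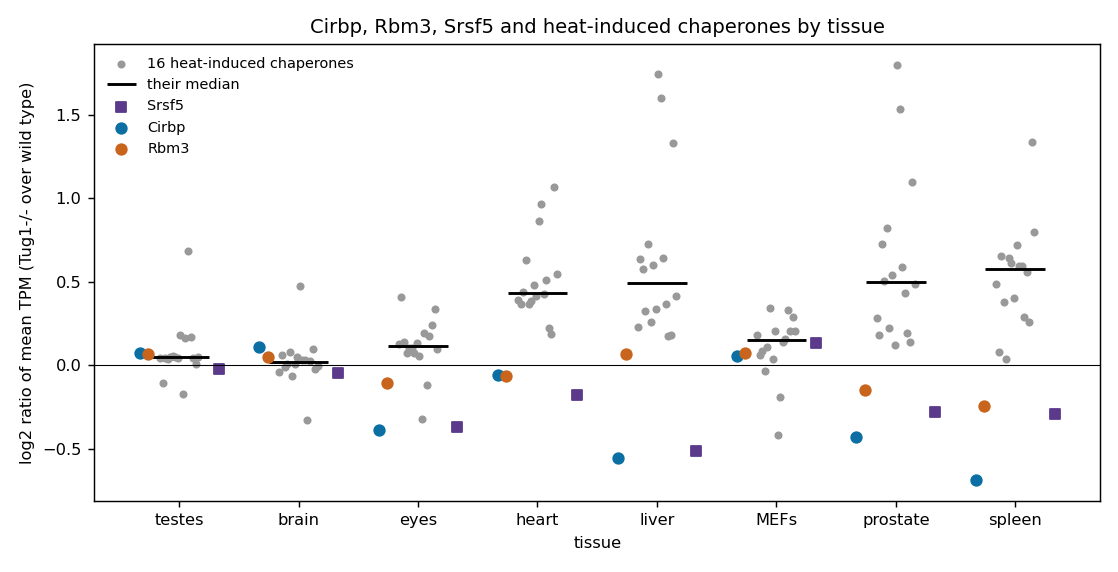
Log2 ratio of mean TPM, Tug1-/- over wild type, in each tissue for Cirbp (blue), Rbm3 (orange), Srsf5 (purple squares) and the 16 heat-induced chaperones (grey points, black line at their median). The chaperone median lies between 0.43 and 0.58 in heart, liver, prostate and spleen and at or below 0.15 in the other 4 tissues, while Cirbp is at -0.39 or lower in eyes, liver, prostate and spleen.

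The SR splicing factors, the substrates of the Clk kinases, mostly stayed near their wild-type means. Their median log2 ratio lay between -0.18 in eyes and 0.22 in MEFs. Srsf5 was the 1 factor of those past the filter that was at least 20% lower in liver and in eyes, a limit that 7.52% of all genes passed in liver and 14.9% in eyes. It was at 84.9 TPM in wild-type against 59.5 TPM in Tug1-/- liver (log2 ratio -0.51), 433 and 336 TPM in eyes (-0.37), 343 and 280 TPM in spleen (-0.29), 391 and 322 TPM in prostate (-0.28) and 79.0 and 69.8 TPM in heart (-0.18). In testes, brain and MEFs its ratio was between -0.05 and 0.13. Measured from the median of all genes it was still below 0 in eyes, heart, liver, prostate and spleen, with -0.18 in spleen, -0.28 in heart and -0.26 in eyes, where it was then no longer 20% lower. The low-level Srsf12, at 1.31 TPM in wild-type against 0.559 TPM in Tug1-/- MEFs, passed the filter on level there through the wild-type mean alone. It was the 1 factor past 1.5-fold in any tissue, against 3.91% of all genes past 1.5-fold lower in MEFs.

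Clk1, Clk2, Clk3 and Clk4 had log2 ratios between -0.24 and 0.26 over the 8 tissues. Hnrnph1, which is known to act on the Rbm3 exon described above, and the splicing repressor Ptbp1 lay between -0.19 and 0.20. The relatives by sequence, Rbmx, Rbmxl1, Rbmxl2, Tra2a and Tra2b, lay between -0.25 and 0.23 where they passed the filter.

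Clock genes were read because Cirbp is known to act on their transcripts. In the list of 11 genes of the Per and Dbp group, 3 were past 1.5-fold higher in heart, 2 in prostate and 1 in liver, where 2.08%, 5.32% and 3.37% of all genes were, and 0 were past 1.5-fold lower in any tissue. Measured from the median of all genes, 1 was past 1.5-fold higher in each of heart, prostate and liver. Per2 was at a log2 ratio of 1.22 in heart and 0.81 in prostate, and Per1, which also responds to stress signals, at 0.66 in heart, 0.60 in prostate, 0.53 in liver and 0.26 in spleen. Ciart, a repressor in the clock, was at 0.65 in heart and 0.70 in liver, the 1 gene of this list past 1.5-fold in liver. In liver 4 of the 11 genes were above their wild-type mean and the list's median log2 ratio was -0.07. In spleen 1 of 11 was above, with a median of -0.23. Measured from the median of all genes, 4 of 11 were above in spleen, with a list median of -0.12. In liver 4 of 11 were, with a list median of -0.08. Dbp, which follows the clock strongly, was at 0.06 in heart, 0.12 in prostate, -0.01 in liver and -0.42 in spleen. In the list of 4 genes of the Arntl group, Nfil3 was at -0.65 in liver, past 1.5-fold lower, and Arntl was at -0.56 there but did not pass the filter on level. In heart, where it passed, Arntl was at -0.51. Since the time of collection is not given, its part in these ratios and in those of Cirbp was not tested.

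The genes whose log2 ratios over the 8 tissues were most like those of each member were sought among 5224 genes with at least 5 TPM in both groups of every tissue. Pearson's r is a description over 8 tissues, whose ratios share the libraries of each tissue. The ratios were taken as given, not measured from the median of all genes, so differences of that median between tissues enter r. For Cirbp they were Daxx (r = 0.97), Pym1 (0.95), Tbcc (0.95), Dnajc30 (0.95) and Ap3s2 (0.94). Their ratios lay between -0.27 and 0.15, against -0.69 to 0.11 for Cirbp, and the names depend on the measure, since rank correlation gave 5 other genes. Daxx is a histone chaperone subunit, Pym1 disassembles exon junction complexes and Tbcc folds tubulin. Most opposite were Hsp90b1 (r = -0.92), Hspa5 (-0.91) and Ak6 (-0.87). Hsp90b1 and Hspa5 are chaperones of the endoplasmic reticulum, and Hspa5 had a log2 ratio of 0.48 in liver, 0.48 in prostate and 0.36 in spleen.

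For Rbm3 the genes most like it were Rpl13 (r = 0.96), Arl6ip4 (0.95), Zfp513 (0.95), Lsm4 (0.95) and Jund (0.93), and the most opposite were Abhd5 (-0.96), Gtf2e2 (-0.90) and Cd59a (-0.89). Rpl13 is a ribosomal protein gene and Jund a subunit of AP-1. Cirbp and Rbm3 correlated with each other at r = 0.68, with Rbm3 at place 484 among the genes like Cirbp. By wild-type level, the genes most like Cirbp were Tmem186 (r = 0.96), Mapk1ip1 (0.94), Ring1 (0.94), Leng8 (0.93) and Gtpbp1 (0.93). Those most like Rbm3 were Leprot (0.99), G3bp1 (0.98), Bcl10 (0.98), Magoh (0.98) and Rpl9 (0.98). The levels of Cirbp and Rbm3 themselves correlated at r = 0.38 over the 8 tissues.

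**Figure D4:**
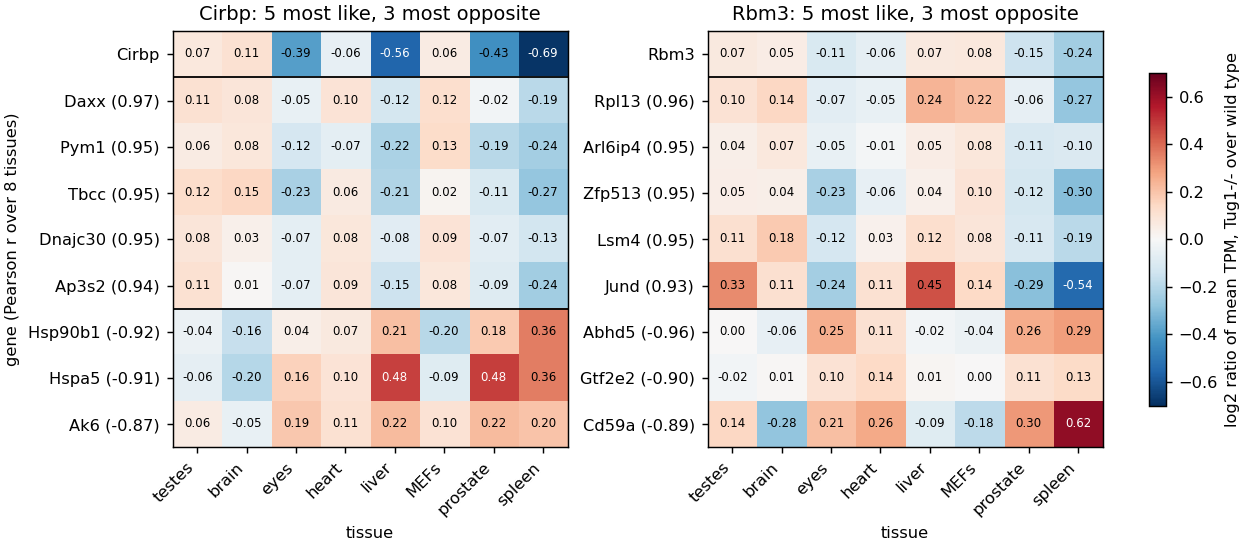
Log2 ratio of mean TPM, Tug1-/- over wild type, by tissue (columns) for Cirbp and Rbm3 (top rows) and, below each, the 5 genes with the most similar and the 3 with the most opposite pattern, with Pearson's r over 8 tissues in brackets. Red is higher and blue lower in Tug1-/- samples; the genes like Cirbp reach -0.27 in spleen where Cirbp is at -0.69.

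The genes next to the members on their chromosomes were read for comparison. Around Cirbp, 1600002K03Rik, which starts 158 bases beyond it, was at log2 ratios of -0.07 in liver, 0.01 in prostate, -0.14 in spleen and -0.23 in eyes. Midn, a gene of the ubiquitin-independent proteasome pathway, lay on the other side at 7617 bases and was at -0.14 in liver, 0.04 in prostate, -0.40 in spleen and -0.18 in eyes. Atp5d, a subunit of ATP synthase, was between -0.15 and 0.11 over the 8 tissues. Efna2, an ephrin, was between -0.16 and 0.65 over the 7 tissues in which it passed the filter. The 0.65 was in prostate, from 0.688 TPM in wild type against 1.14 TPM in Tug1-/- samples. In prostate and testes Efna2 passed the filter on level through the Tug1-/- mean alone, and in spleen through the wild-type mean alone. Around Rbm3, Wdr13, Tbc1d25 and Ebp lay between -0.25 and 0.17, and Gm6787 was at -0.03 in the 1 tissue in which it passed. The antisense Rbm3os was at 0.836 to 2.81 TPM in wild-type samples of the 6 tissues in which it passed the filter, with log2 ratios from -0.70 in prostate to 0.55 in MEFs.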

How the data were processed

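RNA was polyadenylated RNA sequenced from tissues and MEFs. The authors aligned reads with STAR, assigned uniquely mapped reads to genes of GENCODE M16 on GRCm38 with featureCounts, removed genes under 3 reads in every replicate and ran DESeq2. Use of the strand in counting is not given in the sources used here. Deposited values used here are the authors' mean TPM per group and, outside testes, their mean of counts divided by size factors. Fold changes, statistics and p-values of the authors' own comparisons also stand in the deposited tables and were not used. Labels name the tables crosswise, so tissues were taken from the tables.

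Ratios were log2((second + 0.1)/(first + 0.1)) of mean TPM, second over first, Tug1-/- over wild type unless named. The background was genes with at least 1 TPM in either group, past 1.5-fold, or at least 20% lower. Group means allow no test. Both members passed the filter in all 10 comparisons. Named genes were Cirbp, Rbm3, the 5 most like and 3 most opposite genes, the nearest neighbours and members of the lists. Some tissue markers are not reported here. Members and lists were chosen with earlier results of these data known. Alternatives were pseudocounts of 1 and 0.01 TPM, centring on the median, rescaling without mitochondrial and the 50 highest genes, other filters, a lower and a 2-fold limit, protein-coding genes only, rank correlation and brain left out. Gene models came from GENCODE M21, where both members have the coordinates of the tables, and the promoter from RefSeq. Scripts were tested on simulated data and ran in Python 3.11.15 with numpy 2.4.6, pandas 2.3.3, scipy 1.17.1 and matplotlib 3.10.9.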

Additional observations from a re-analysis of the deposited data

How the results depend on the processing

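Of 132 values recomputed under the alternatives, 108 stayed within 0.1 on the log2 scale (or 1.5 times for a count or share), 24 moved, and no ratio past the 20% limit changed sign. Centring turned the sign of 2 ratios near 0, Rbm3 in eyes from -0.11 and Cirbp in rescue over wild-type testes from 0.03 to -0.0045. Pseudocounts moved a member's log2 ratio by at most 0.04. Centring on the median of all genes put Cirbp at -0.28 in eyes, -0.16 in heart and -0.58 in spleen, and Rbm3 at 0.000923 in eyes, -0.17 in heart and -0.13 in spleen. Rescaling put heart at -0.18 for Cirbp and -0.19 for Rbm3. The share of genes past 1.5-fold lower over the 8 tissues together, 3.70%, became 1.97% with 1 TPM added, 6.57% with no filter, 1.52% at 5 TPM, 1.92% for protein-coding genes, 9.68% at a limit of 20% lower and 1.38% past 2-fold. Of the 5 genes most like Cirbp, Spearman's correlation kept 0, leaving brain out kept 3 and a filter of 1 TPM kept 2, and of those most like Rbm3 Spearman's kept 0, so these names depend on the measure. Centring took the genes at least 20% lower in at least 4 tissues from 26 to 17, and centring or rescaling took the Per and Dbp group genes past 1.5-fold higher from 3 to 1 in heart and from 2 to 1 in prostate, alternatives added after the data were seen. Rescaling kept 4 of 8 ranks in the tissue order of Rbm3. No paired analysis was possible because the tables hold group means, and for the same reason no replicate could be left out. A ratio of means with no spread limits every statement above to these means, and 1 aberrant library in a group of 2 to 4 could set one of them.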
